A study of Mus musculus with 4 samples.

Results

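The nuclear genes of the mitochondrial respiratory chain and of ATP synthase were followed over the 4 colon arrays of the series, complex by complex. Members were chosen by gene symbol, after the platform's names had been updated through RefSeq synonyms: Nduf genes of the a, b, c, s and v series for complex I, the Sdh genes for complex II, Uqcr genes and Cyc1 for complex III, Cycs for cytochrome c, nuclear Cox4 to Cox8 genes for complex IV and Atp5 genes for complex V. Assembly factors were left out. The pathway itself was selected on earlier results of the same 4 arrays. The symbols gave 69 of the 16637 named genes on the array. A gene is called measured here if it reached the median intensity of the named probes on at least 1 array, which held for 62 of the 69 members and for 10056 of all genes. By complex, 31 of 32 members of complex I were measured, 4 of 4 of complex II, 7 of 8 of complex III, 10 of 15 of complex IV and 10 of 10 of complex V.

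RNA came from the colon of female mice, of a strain labelled BALB/c for mock and BALC/c for the other groups, 7 days after dosing. All 24 mice, 6 in each of 4 groups, received 0.1 ml of 50% ethanol. Ethanol alone makes the mock group, 250 mg/kg trinitrobenzene sulfonic acid (TNBS, a hapten that provokes colitis when given with ethanol) the TNBS group, and the same TNBS mixed with ginger extract or with zingerone, a phenolic ketone of ginger, the last groups. Each group has 1 array. Whether that array carried RNA of a single mouse or of pooled mice is not in the labels. Ginger extract and zingerone were given in differing amounts, and the labels do not say which amount an array stands for.

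Without replicate arrays, differences between groups have no error and no replicate check, nothing was tested, and precision is limited by how few arrays there are. The members' values are therefore a description. Values are deposited Cy3 intensities on a linear scale, from 74.2 to 64634, whose sorted values differ by at most 1.84% between arrays. They carry a background, so differences of dim probes are understated. RNA came from colons and not from sorted cells, and in such bulk tissue fewer cells of a type and less RNA per cell cannot be told apart. Every comparison is a log2 difference of 2 arrays, and shares and medians over all measured genes stand beside those of the pathway.

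Oxidative phosphorylation passes electrons from NADH through complex I, or from succinate through complex II, to ubiquinone, then through complex III and cytochrome c to complex IV, which reduces oxygen. Complexes I, III and IV pump protons across the inner mitochondrial membrane, and complex V lets them back to make ATP. Colonocytes are known to draw much of their energy from this pathway by oxidising butyrate that gut bacteria make. Nuclear genes encode most subunits, while a few core subunits come from mitochondrial DNA and were not analysed here.

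On the TNBS array every measured member was lower than on the mock array. All 62 lay below their mock value, against 53.7% of all measured genes, and 60 of them had their lowest intensity of the 4 arrays on TNBS, against 33.2% of all genes. Of the 62 members 41 were at least 1.5-fold lower (12.2% of all measured genes) and 27 at least 2-fold lower (4.52%), and none was 1.5-fold higher (11.9%). The mock array held the highest intensity of 46 members, against 29.4% of all genes. Among the 5174 brighter genes past the 75th percentile of the named probes, which hold 61 members, 18.5% were 1.5-fold lower and 7.85% 2-fold lower. The members' median difference was -0.75 (log2, TNBS minus mock) and the median over all measured genes -0.04.

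The complexes were not lowered alike. Medians (log2, TNBS minus mock) were -1.10 for complex IV, -1.07 for complex V, -0.90 for complex III, -0.75 for complex I and -0.31 for complex II. Counts of members at least 1.5-fold lower were 9 of 10 in complex IV, 7 of 10 in complex V, 5 of 7 in complex III, 19 of 31 in complex I and 1 of 4 in complex II. The shares were 12.2% over all measured genes and 18.5% over the brighter ones, and with so few members the 1 of 4 is not far from them. Without the filter on dim genes, the complex IV median was -0.67 and the lowest was that of complex V (-1.07). Members of complexes I, IV and V spread from -0.02, -0.16 and -0.09 to -2.11, -2.01 and -1.94, and those of complex III from -0.45 to -1.51. Members of 1 complex are not replicates of each other, and no test separates the complexes.

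**Figure D1:**
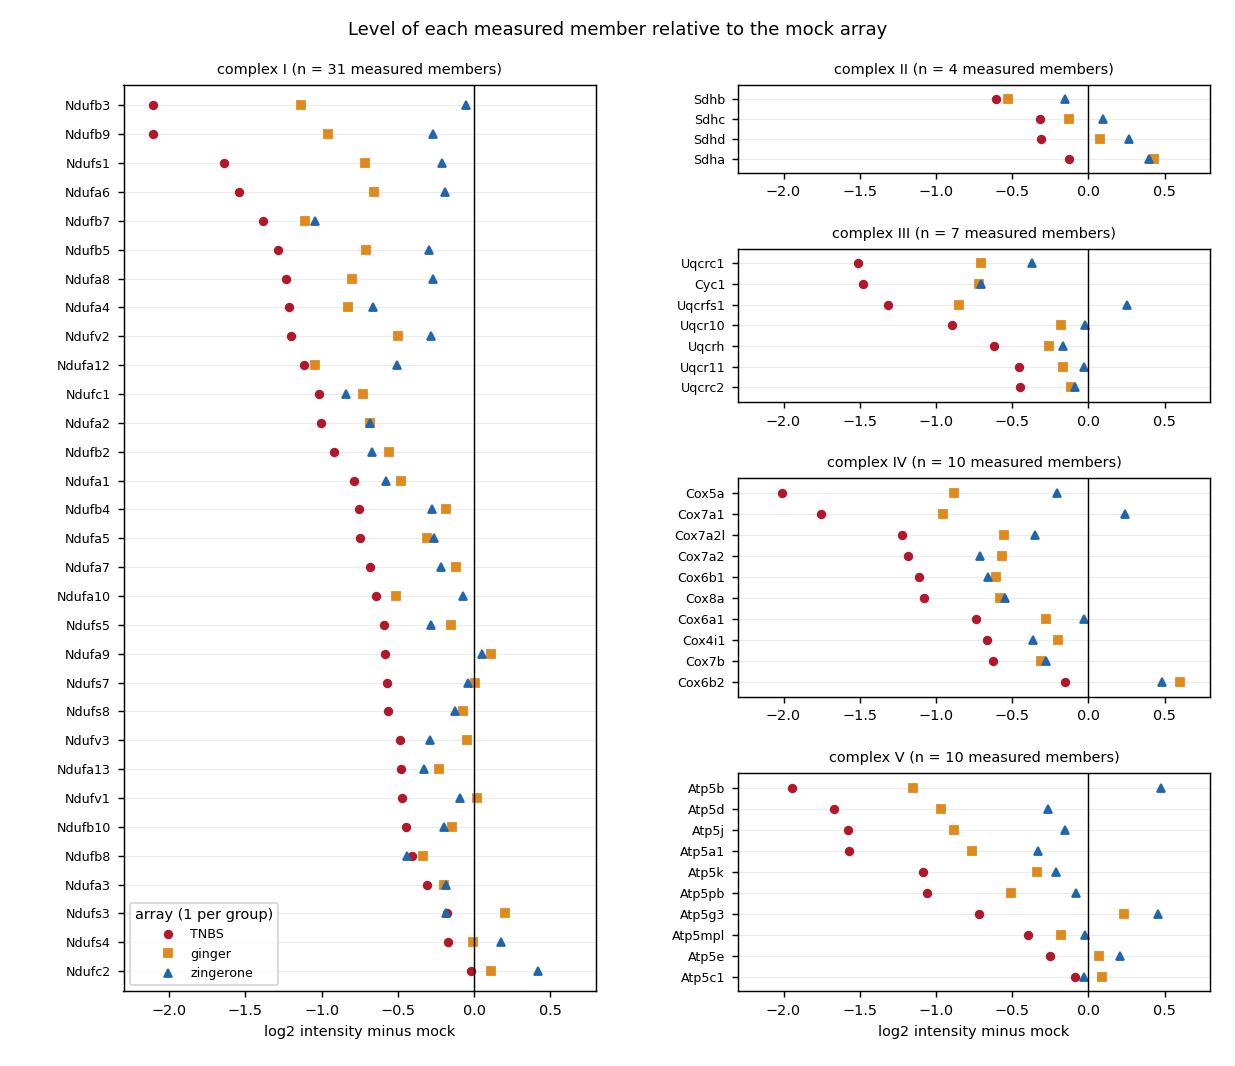
Log2 intensity of each measured member on the TNBS (red circles), ginger (orange squares) and zingerone (blue triangles) arrays minus its intensity on the mock array (line at 0), by complex, 1 array per group. All red circles lie left of 0, from -2.11 for Ndufb3 to -0.02 for Ndufc2, and ginger and zingerone symbols mostly lie between TNBS and mock.

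Promoters are shown because the members were all lower on 1 array and because textbook regulators of these genes bind short motifs there. RefSeq promoter entries (250 bases before to 50 after the start, build GRCm38.p6) matched 56 of the 69 members. The patterns searched, on both strands, were the NRF1 palindrome, CCGGAAG (ETS factors such as GABPA), AAGGTCA (ERR receptors) and GCCATNTT (YY1); no matches of different patterns overlapped in the member promoters. Of 58 promoters of 53 measured members, 22.4% held the NRF1 pattern, 22.4% the ETS pattern, 12.1% the ERR pattern and 24.1% the YY1 pattern, against 4.60%, 8.86%, 4.72% and 6.05% of all 32851 promoters and 8.30%, 15.0%, 3.40% and 7.64% of 10243 promoters of measured genes. At least 1 pattern stood in 12 of the 24 promoters of members 2-fold lower on TNBS and in 24 of the 34 promoters of other members. Each pattern was thus more frequent in member promoters than in the table as a whole, and it was not more frequent among the members that stood lowest on TNBS than among the others. A match of letters is no evidence of binding.

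The 250 bases before the start are printed for 4 members that differ in how low they stood on TNBS, in lower case with the searched patterns in capitals. Cox5a, about 4-fold lower on TNBS, holds none of them; Ndufb5 (-1.29) holds the YY1 pattern in 2 places, Ndufa8 (-1.23) the NRF1 pattern in 1 place, and Sdha (-0.13) the NRF1 pattern in 3 places.
Cox5a, GRCm38.p6 chr9:57520982-57521231, plus strand: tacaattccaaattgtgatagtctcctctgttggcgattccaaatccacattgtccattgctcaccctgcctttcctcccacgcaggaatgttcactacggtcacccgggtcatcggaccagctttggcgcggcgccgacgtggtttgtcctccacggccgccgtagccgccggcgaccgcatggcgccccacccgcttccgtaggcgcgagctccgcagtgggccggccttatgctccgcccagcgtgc
Ndufb5, GRCm38.p6 chr3:32736813-32737062, plus strand: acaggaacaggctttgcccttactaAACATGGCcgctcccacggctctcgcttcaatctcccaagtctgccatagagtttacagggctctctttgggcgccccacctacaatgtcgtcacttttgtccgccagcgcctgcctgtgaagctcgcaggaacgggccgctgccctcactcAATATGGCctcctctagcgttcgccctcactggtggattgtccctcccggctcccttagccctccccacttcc
Ndufa8, GRCm38.p6 chr2:36049339-36049588, minus strand: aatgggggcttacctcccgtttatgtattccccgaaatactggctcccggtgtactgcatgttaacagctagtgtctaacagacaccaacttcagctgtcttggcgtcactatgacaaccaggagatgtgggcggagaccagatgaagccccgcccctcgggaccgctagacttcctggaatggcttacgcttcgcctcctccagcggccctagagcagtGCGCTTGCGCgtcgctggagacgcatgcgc
Sdha, GRCm38.p6 chr13:74350241-74350490, minus strand: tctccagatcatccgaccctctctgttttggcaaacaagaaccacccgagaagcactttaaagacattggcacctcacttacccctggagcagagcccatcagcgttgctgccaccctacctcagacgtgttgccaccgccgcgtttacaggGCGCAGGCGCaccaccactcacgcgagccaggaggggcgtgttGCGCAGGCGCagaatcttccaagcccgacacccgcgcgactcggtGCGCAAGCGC

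Complex I takes electrons from NADH at a flavin, leads them along iron-sulfur clusters to ubiquinone and pumps protons. Of 6 measured core subunits, most of which carry the flavin or iron-sulfur clusters, Ndufs1 was lowest on TNBS relative to mock. Ndufs1, the largest iron-sulfur subunit, had an intensity of 2711, 869.8, 1653 and 2348 on mock, TNBS, ginger and zingerone. It was 3.12-fold lower on TNBS than on mock, and its zingerone value came back to 86.6% of mock. Ndufv2, an iron-sulfur subunit of the NADH-binding arm, read 16011, 6974, 11312 and 13149 on mock, TNBS, ginger and zingerone. The other core subunits stood within 1.5-fold of mock: Ndufv1, which binds NADH and the flavin, read 5956, 4291, 6048 and 5576 in the same order, and Ndufs7, Ndufs8 and Ndufs3 were at -0.57, -0.56 and -0.18 (log2, TNBS minus mock). Partners in the NADH-binding arm were thus lower to different degrees on the TNBS array.

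Supernumerary subunits, which surround the core of complex I, held the deepest differences. Ndufb3, a membrane-arm subunit, read 3299, 765.5, 1504 and 3186 on mock, TNBS, ginger and zingerone. It was 4.31-fold lower on TNBS than on mock, its ginger value was 45.6% of mock, and its zingerone value 96.6% of mock. Ndufb9, also of the membrane arm, read 5723, 1332, 2949 and 4740. Ndufa6, a subunit of the hydrophilic arm, read 18436, 6328, 11721 and 16128. These members had the order TNBS, ginger, zingerone, mock from low to high.

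Another set of complex I members was low on TNBS and stayed low on both treated arrays. Ndufb7 read 2128, 814.3, 988 and 1034 on mock, TNBS, ginger and zingerone, so that its treated values were 46.4% and 48.6% of mock. Ndufc1 stood at 60.5% of mock on ginger and 55.7% on zingerone, Ndufa2 at 62.2% and 62.3%, and Ndufb2 at 67.9% and 63.0%. Ndufa12 differed between the treated arrays, at 48.4% of mock on ginger and 70.5% on zingerone. At the other end Ndufc2 read 8240, 8136, 8896 and 11017 on mock, TNBS, ginger and zingerone and was nearly equal on mock and TNBS. Ndufs4, known for its role in joining the NADH-binding arm to the rest of complex I, stood at -0.17 as the mean of 2 unlike probes. Its brighter probe was higher by 0.25 and the other stood at -0.59 (log2, TNBS minus mock). Ndufa4 bears a complex I name but is known today as a subunit of complex IV; it read 7941, 3429, 4475 and 5016.

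Over complex I as a whole, 31 of 31 measured members were higher on ginger than on TNBS, 6 of them at least 1.5-fold, where 52.7% and 6.06% of all measured genes were. On zingerone 29 of 31 were above TNBS, 9 of them at least 1.5-fold, where 48.4% and 13.1% of all measured genes were. The exceptions Ndufb8 (-0.03) and Ndufs3 (-0.01) lay close to 0. The Ndufb8 value is the mean of 2 unlike probes, 0.30 for the brighter and -0.36 for the dimmer (log2, zingerone minus TNBS). Complex I medians against TNBS were 0.43 on ginger and 0.44 on zingerone. Both treated arrays thus stood between TNBS and mock in the middle of the complex, with medians against mock of -0.34 for ginger and -0.27 for zingerone.

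Complex II is succinate dehydrogenase, the only respiratory complex that is also an enzyme of the citric acid cycle, and all its subunits are nuclear. It was the least lowered. Sdha, the flavoprotein that oxidises succinate, read 3183, 2916, 4285 and 4191 on mock, TNBS, ginger and zingerone, so that both treated values exceeded mock. Sdhb, the iron-sulfur subunit, read 5047, 3312, 3500 and 4539 and was the only member of complex II 1.5-fold lower on TNBS. The membrane anchors Sdhc (4894, 3930, 4482 and 5224) and Sdhd (4291, 3458, 4518 and 5166) were 1.25-fold and 1.24-fold lower on TNBS than on mock. On the zingerone array Sdha, Sdhc and Sdhd lay above mock and Sdhb at 89.9% of it.

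Complex III passes electrons from ubiquinol to cytochrome c. Its members ranged from nearly 3-fold lower on TNBS to within 1.5-fold of mock. Uqcrc1, a core protein, read 6024, 2114, 3690 and 4670 on mock, TNBS, ginger and zingerone, 2.85-fold lower on TNBS than on mock. Cyc1, the haem protein that hands electrons to cytochrome c, read 5231, 1875, 3177 and 3211. Cyc1 thus stopped at 60.7% of mock on ginger and 61.4% on zingerone. Uqcrfs1, the Rieske iron-sulfur protein, read 498.2, 200, 277.2 and 593.5, and was the only measured member that fell short of the median of the named probes on some array. The other core protein, Uqcrc2, read 3605, 2648, 3326 and 3385. Core proteins of 1 complex, Uqcrc1 and Uqcrc2, therefore differed in how far they stood below mock, 2.85-fold against 1.36-fold. The small subunits Uqcr10, Uqcrh and Uqcr11 were at -0.90, -0.62 and -0.45 (log2, TNBS minus mock). All 7 measured members were higher on both treated arrays than on TNBS, with 3 at least 1.5-fold higher on ginger (6.06% of all measured genes) and 4 on zingerone (13.1%).

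Complex IV, cytochrome c oxidase, has a catalytic core made in the mitochondrion and a shell of nuclear subunits, several of which exist as tissue forms. Cox5a read 17079, 4237, 9253 and 14803 on mock, TNBS, ginger and zingerone. It was 4.03-fold lower on TNBS than on mock and stood at 54.2% of mock on ginger and 86.7% on zingerone. Cox4i1, the common form of the largest nuclear subunit, read 43027, 27108, 37402 and 33501. Cox8a read 47587, 22529, 31902 and 32515, Cox7a2 20898, 9191, 14093 and 12755, and Cox6b1 14447, 6685, 9491 and 9155. The last 3 genes were about 2-fold lower on TNBS and reached no more than 68.3% of mock on either treated array. All arrays share almost the same set of sorted values, so the level of a gene as bright as Cox8a is mainly a rank.

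Tissue forms of complex IV subunits were mostly not detected above the filter. Cox6a2 and Cox8b, forms of heart and skeletal muscle, read at most 195.5 and 199.3 on any array, Cox4i2, a form known from lung, at most 99.5, and Cox7b2 and Cox8c, forms of testis, at most 122.3 and 239. Cox7a1, the muscle form of Cox7a2, and Cox6b2, best known as a testis form of Cox6b1, were measured. Cox7a1 read 2193, 650.5, 1132 and 2594 on mock, TNBS, ginger and zingerone. It stood 3.37-fold below mock on TNBS and above mock on zingerone. Cox6b2 read 5183, 4654, 7875 and 7243 from a single probe. It was near mock on TNBS and was the only member at least 1.5-fold above mock on a treated array (1.52-fold on ginger, where 4.95% of all measured genes were).

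ATP synthase consists of a soluble F1 head that makes ATP and a membrane part that carries the proton-driven ring. Subunits of the F1 head were lowered unequally. Atp5b, the catalytic beta subunit, read 13062, 3395, 5874 and 18134 on mock, TNBS, ginger and zingerone. It was 3.85-fold lower on TNBS than on mock, and its zingerone value was 139% of mock. Atp5a1, the alpha subunit, read 17459, 5874, 10284 and 13857, and Atp5d, the delta subunit of the central stalk, 5145, 1617, 2631 and 4282. By contrast Atp5e, the epsilon subunit of the same stalk, read 20297, 17079, 21295 and 23447. Atp5c1, the gamma subunit that forms the stalk's axis, had probes at -0.06 and -0.12 (log2, TNBS minus mock). In all, 3 of 5 F1 genes were thus about 3-fold or more below mock on TNBS and the others within 1.5-fold.

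In the membrane part and the peripheral stalk of ATP synthase, Atp5j read 8498, 2846, 4603 and 7648 on mock, TNBS, ginger and zingerone, Atp5pb 19065, 9151, 13394 and 18062, and Atp5k 22529, 10607, 17811 and 19442. Atp5g3, which encodes a subunit of the proton-carrying ring, read 20752, 12602, 24360 and 28489 and exceeded mock on both treated arrays. The small accessory subunit Atp5mpl stood at -0.39 (log2, TNBS minus mock). Complex V had the largest median difference of zingerone against TNBS among the complexes, 1.08, with 7 of 10 members 1.5-fold higher (13.1% of all measured genes) and 5 of 10 2-fold higher (4.57%). On ginger the median against TNBS was 0.70, with 6 of 10 members 1.5-fold higher (6.06%) and none 2-fold higher (1.35%).

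**Figure D2:**
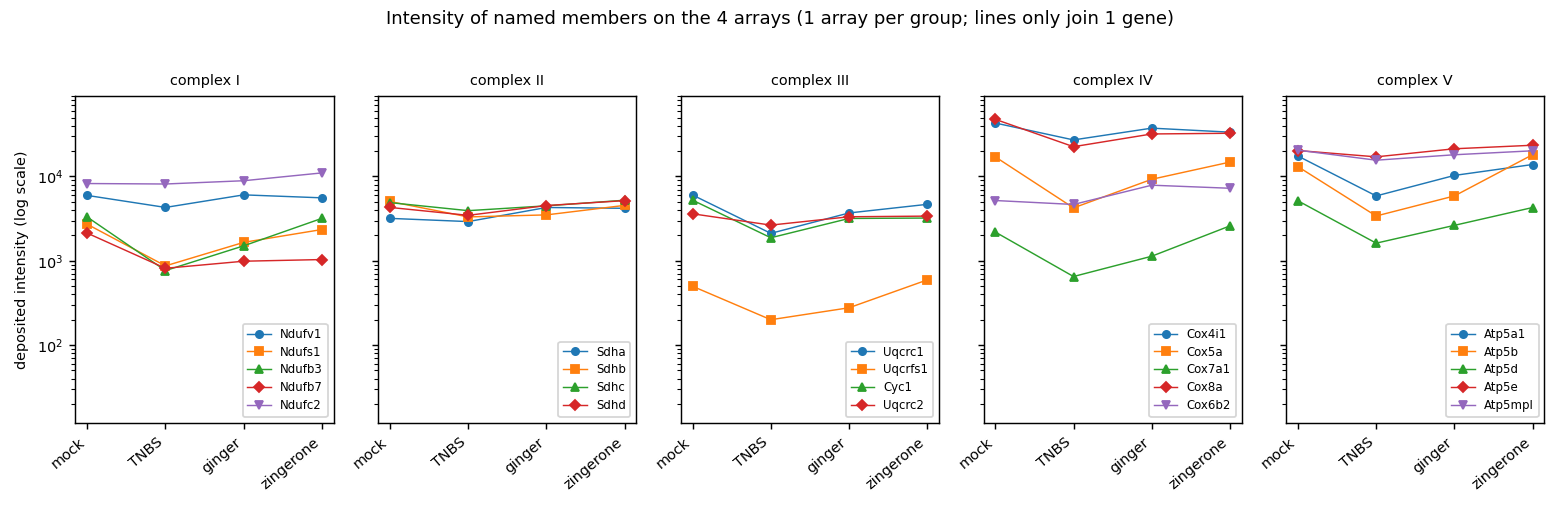
Deposited intensity (log axis) of named members on the mock, TNBS, ginger and zingerone arrays, 1 array per group, by complex; lines only join the points of 1 gene. Atp5b goes from 13062 on mock to 3395 on TNBS and 18134 on zingerone, whereas Sdha and Ndufc2 stay near their mock values on TNBS.

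Across the pathway, both treated arrays stood above the TNBS array. On ginger, 62 of 62 measured members exceeded TNBS (52.7% of all measured genes), 20 at least 1.5-fold (6.06%) and 2 at least 2-fold (1.35%), with a median of 0.47 (log2, ginger minus TNBS) against 0.02 for all measured genes. The 2-fold members were Ndufb9 (1.15) and Cox5a (1.13). Of the brighter genes, which hold 61 of the 62 members, 10.3% were at least 1.5-fold higher on ginger and 17.2% on zingerone. On zingerone, 60 of 62 members exceeded TNBS (48.4%), 25 at least 1.5-fold (13.1%) and 13 at least 2-fold (4.57%), with a median of 0.51 against -0.02. The largest were Atp5b (5.34-fold), Ndufb3 (4.16-fold) and Cox7a1 (3.99-fold). These comparisons share the TNBS array with the comparison of TNBS with mock, so 1 low reading on TNBS enters all of them.

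Against mock, both treated arrays were lower in most members. These comparisons share the mock array with each other and with the comparison of TNBS with mock, so 1 high reading on mock enters all of them. On ginger 51 of 62 members lay below mock (48.9% of all measured genes), 21 of them at least 1.5-fold (5.21%) and 4 at least 2-fold (1.08%), with a median of -0.34 against 0.01. The 2-fold members were Atp5b, Ndufb3, Ndufb7 and Ndufa12. On zingerone 50 of 62 lay below mock (48.6%), 8 of them at least 1.5-fold (5.12%), with a median of -0.20 against 0.01. Those 8 were Ndufb7, Ndufc1, Ndufa4, Ndufa2, Ndufb2, Cyc1, Cox7a2 and Cox6b1, and only Ndufb7 was 2-fold lower (1.05%). Of the brighter genes 8.19% were at least 1.5-fold lower than mock on ginger and 8.58% on zingerone. Complex II, at -0.03 on ginger and 0.18 on zingerone, had the highest medians of the complexes, while complex IV had the lowest, at -0.56 and -0.31. Without the filter the complex IV medians were -0.28 and -0.08, and the lowest were those of complex V on ginger (-0.42) and complex I on zingerone (-0.27). The complex II median on ginger was slightly above 0, at 0.03, with the brightest probe per gene. The order TNBS, ginger, zingerone, mock from low to high held for 32 of 62 members, against 7.39% of all measured genes.

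Most members lay within 1.5-fold between the zingerone and ginger arrays. Of 62 members 8 were at least 1.5-fold higher on zingerone (4.85% of all measured genes, 5.84% of the brighter ones) and none on ginger (1.58%). At least 2-fold higher on zingerone (0.746%) were Atp5b (3.09-fold), Cox7a1 (2.29-fold), Uqcrfs1 (2.14-fold) and Ndufb3 (2.12-fold), and the others were Atp5j, Atp5d, Ndufb9 and Cox5a, at most 1.66-fold higher. Each of these 8 genes was measured by 1 probe. The median member difference was 0.13 (log2, zingerone minus ginger), with 0.33 for complex V and 0.00 for complex I. Since the amounts behind these arrays are not known here, the values stand side by side and do not compare the agents at matched doses.

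The 8 members at least 1.5-fold higher on zingerone than on ginger all belonged to the 27 standing 2-fold lower on TNBS than mock. These comparisons have no array in common. Over all measured genes 4.85% were 1.5-fold higher on zingerone than on ginger and 4.52% 2-fold lower on TNBS than on mock. Their overlap over all genes was not counted. Above 0 for zingerone minus ginger were 24 of the 27 and 17 of the other 35 members, against 45.6% of all measured genes. That share was not counted apart for all genes 2-fold lower on TNBS, which would be the like background for the 27. The median of zingerone minus ginger was 0.43 (log2) for these 27 and -0.03 for the other 35 members. Across the 62 members the differences had a Pearson r of -0.69 and a Spearman rho of -0.58, and over all 10056 measured genes these were -0.24 and -0.21. Points are genes of the same 4 arrays, normalised together, and not independent replicates, so the correlation is a description. Several members went against it, at least 2-fold lower on TNBS than on mock and nearly alike on both treated arrays. Among them were Ndufb7, Cyc1, Cox7a2, Cox6b1, Cox8a, Ndufc1 and Ndufa2.

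**Figure D3:**
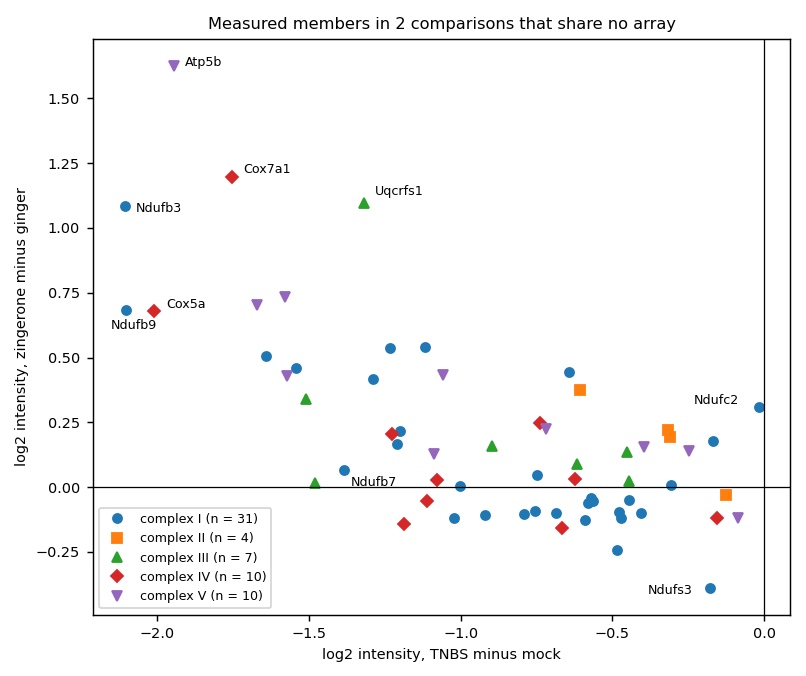
Log2 difference of zingerone minus ginger (vertical) against TNBS minus mock (horizontal) for the 62 measured members, with 1 symbol per complex. Members at the left, lowest on TNBS, reach the highest vertical values (Atp5b 1.63), while those right of -1 lie between -0.39 and 0.44.

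Other mitochondrial genes, from lists chosen by function, had medians nearer 0 than complexes I, III, IV and V in the comparison of TNBS with mock. Many genes of these lists were dim, where differences are understated. The members were bright, with a median intensity of 5990 on mock against 459 over all measured genes. The lists were not compared with the members at matched brightness. Of 9 measured complex I assembly factors 1 was at least 1.5-fold lower on TNBS than on mock, with a median of -0.21 (log2); this was Ndufaf5 (1002, 453, 745.5 and 1190 on mock, TNBS, ginger and zingerone), and Ndufaf6 stood at -0.48. Here and in the lists that follow, the share over all measured genes is 12.2% lower and 11.9% higher, so that 1 of 9 is close to it. Of 27 assembly factors of complexes II to V 7 were lower and 3 higher, with a median of -0.20. The 3 higher ones, Taco1, Ttc19 and Atpaf1, lay below the filter on mock (259.5, 221.7 and 217.5). They thus count as measured only through arrays where they were higher. Of the lower ones, Sdhaf1, Sdhaf4 and Cox11 lay below the filter on TNBS (262.7, 244 and 204.2). Sdhaf1, an assembly factor of complex II, was among the lower ones (514.5, 262.7, 307.5 and 655), and Taco1, a translational activator of complex IV, went the other way (259.5, 751.2, 401.8 and 341.2). Citric acid cycle enzymes had 3 of 11 lower and a median of -0.11, led by Suclg1 (17394, 7379, 11498 and 10384) and Idh2 (4436, 2390, 3592 and 4229). Coenzyme Q synthesis genes had 4 of 10 lower and a median of -0.24, with Coq2 at -0.77 and Pdss1 at -0.64. Other donors of electrons to ubiquinone had 2 of 6 lower and a median of -0.09, Etfb at -0.96 and Etfdh at -0.75, both of which serve fatty acid oxidation.

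Carriers and channels around ATP synthase were mixed, with 3 of 6 measured genes 1.5-fold lower, 1 higher and a median of -0.59 (log2, TNBS minus mock). Slc25a4, the muscle and heart form of the ATP/ADP carrier, was higher on TNBS, at 1737, 3999, 2290 and 2309 on mock, TNBS, ginger and zingerone. Ckmt1, a mitochondrial creatine kinase, was lower, at 18611, 8370, 20488 and 18436. Transcriptional regulators of mitochondrial genes were not lowered as a list: 2 of 12 were 1.5-fold higher, close to the share over all measured genes, none lower, and the median was -0.02. Several, such as Pprc1, Esrrg and Tfb1m (262.7, 261.9 and 275.7 on mock), read close to the filter, where differences are understated. The ERR receptor gene Esrra read 1318, 998.4, 1089 and 987.5 on mock, TNBS, ginger and zingerone. Hif1a, which responds to low oxygen, read 2351, 6699, 3568 and 5094, Nfe2l2 was at 0.67, and Nrf1, known to bind promoters of this pathway, read 3012, 2121, 2392 and 1900. Ppargc1a, a coactivator of mitochondrial biogenesis, stayed below the filter on all arrays, at most 172.3. The ATP synthase inhibitor Atpif1, which lies outside the symbol rule, read 15415, 13447, 16621 and 16011 and stood close to mock throughout.

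**Figure D4:**
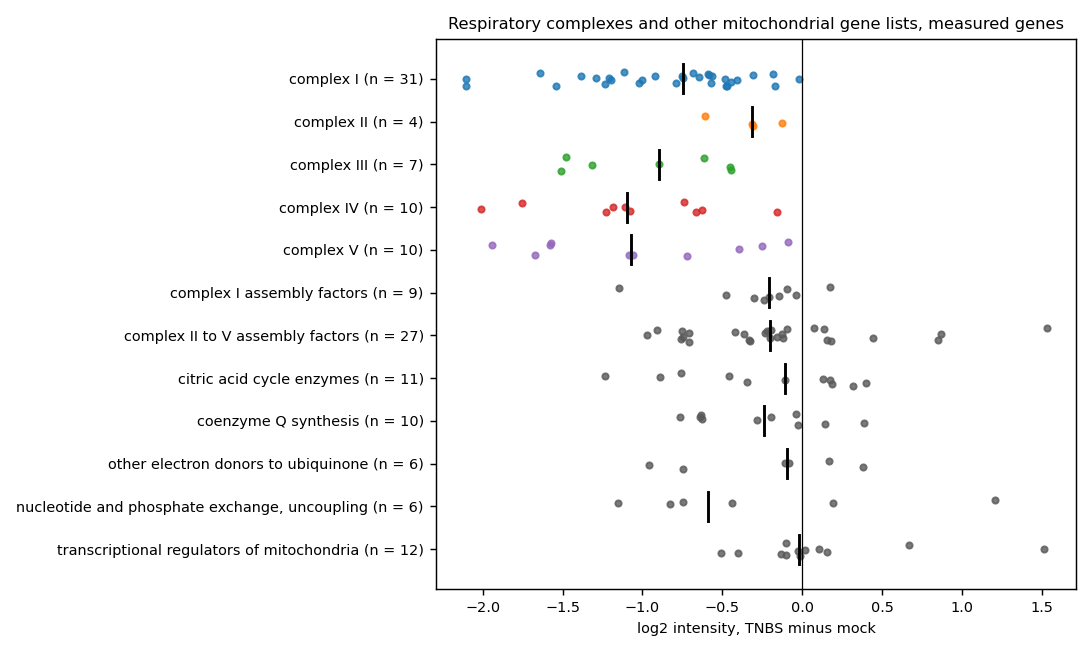
Log2 difference of TNBS minus mock for measured genes of the respiratory complexes (coloured) and of other mitochondrial lists (grey); each point is 1 gene, black bars are medians, and vertical jitter has no meaning. Medians run from -1.10 for complex IV to -0.02 for transcriptional regulators.

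Markers of cell types also differed between the arrays, in directions that varied by list. Over all measured genes, 12.2% were 1.5-fold lower and 11.9% higher on TNBS than on mock. Of 7 measured absorptive colonocyte markers 6 were at least 1.5-fold lower and 1, Krt20, was higher (7648, 12315, 9804 and 11211), with a summed intensity of 42249, 18076, 31108 and 56505 on mock, TNBS, ginger and zingerone. Guca2a held most of the zingerone sum. Without it the sums were 21589, 15304, 16305 and 21909, still lowest on TNBS, and Car4 read 7778, 967.8, 1915 and 2981. Goblet cell markers were 1.5-fold lower for 5 of 7, with sums of 204727, 117658, 168178 and 193531. Neutrophil markers were higher for 5 of 5 measured genes, with sums of 4732, 146078, 95604 and 74757. Without S100a9 the sums were 3686, 86423, 43683 and 33509. Mmp8 (161.8) and Cxcr2 (217.1) lay below the filter on mock, so they count as measured only through arrays where they were higher. Mpo (1.06-fold higher on TNBS than on mock) and Csf3r (1.28-fold) stayed below the filter on all arrays, and Ly6g had no named probe. Of 8 monocyte and macrophage markers 2 were higher and 5 lay below mock, with a median of -0.05 (log2). Their sums of 4211, 31356, 7178 and 7076 followed Cd14 (1322, 28071, 4222 and 4097), and without it they were 2889, 3285, 2956 and 2979. White adipocyte markers were higher for 5 of 6 measured genes (9811, 64358, 16056 and 28661). Fabp4 held most of the TNBS sum, and without it the sums were 5651, 18452, 6088 and 8805. Lep (143.5) and Plin4 (266.5) lay below the filter on mock. Plin1 stayed below it on all arrays (229.5 on mock and 234.5 on TNBS). Smooth muscle markers were 1.5-fold lower for 3 of 8 and higher for 1 (21645, 17260, 16941 and 10110), with the lowest sum on zingerone. Skeletal muscle markers had 4 of 8 genes measured, 2 of them higher on TNBS (1507, 2241, 1867 and 2220). Those 2, Acta1 and Tnnt3 (both 265.3 on mock), and Ckm (259.5) lay below the filter on mock. They thus count as measured only through arrays where they were higher. Of 8 genes of brown adipocytes, in which Cox7a1 is also abundant, 2 were measured. These were Otop1 (266.5 on mock and 264.5 on TNBS) and Ppara (300 and 300.3). Ucp1 and Cidea stayed below the filter at no more than 187.5 and 219.7. Dio2 also stayed below it but was higher on TNBS (263.8) than on mock (147.5). The part of tissue composition in the members' differences was not tested.

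Where a member had 2 probes, they often disagreed in size. Both probes were lower on TNBS than on mock in 8 of 10 such members, and Ndufs4 (0.25) and Ndufa13 (0.02) each had 1 probe above 0. Ndufa10 had 1 probe at 1849, 773.2, 955.2 and 1655 on mock, TNBS, ginger and zingerone, and another that stayed between 242.5 and 258.8. The brighter Ndufa13 probe read 20394, 10384, 13447 and 13198, and the dimmer one stayed between 260.8 and 291.8. In both genes the probe close to the filter hardly differed between arrays, and the mean of probes dilutes the difference of the bright one on the log2 scale. Cox6a1, the common form of Cox6a, had bright probes at -0.36 and -1.12 (log2, TNBS minus mock), a wider gap than the median of 0.40 over 1775 measured genes with 2 probes.

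**Figure D5:**
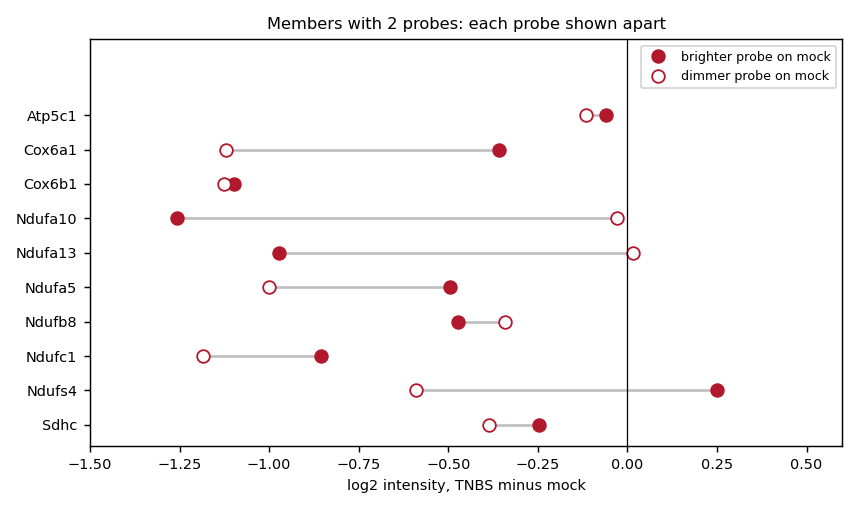
Log2 difference of TNBS minus mock for each probe of the 10 members with 2 probes; filled circles are the brighter and open circles the dimmer probe on mock. The Cox6b1 probes lie together at -1.10 and -1.12, whereas those of Ndufs4 lie on both sides of 0, at 0.25 and -0.59.

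The other members of the pathway are given for completeness. Cox7a2l, which helps to join complexes III and IV into supercomplexes, read 3041, 1300, 2071 and 2384, and Cox7b read 31068, 20150, 25088 and 25633. Of the complex I members not yet named, Ndufa1, Ndufb4, Ndufa5, Ndufa7, Ndufs5 and Ndufa9 lay between -0.79 and -0.58 (log2, TNBS minus mock), and Ndufv3, Ndufb10 and Ndufa3 between -0.48 and -0.31. Ndufb11 (247, 176, 201.2 and 204.2) and Uqcrq (226.8, 232.5, 213.7 and 200.5) stayed below the filter on every array. Ndufab1, an acyl carrier protein of complex I that the symbol rule leaves out, was dim, at 267.4, 312.6, 327.9 and 337.7. A further 20 genes of RefSeq fit the rule but were not analysed here, among them Cycs, Ndufa4l2, Cox5b, Cox6c and Cox7c.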

How the data were processed

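The authors deposited 1 table of linear Cy3 intensity values, with a row for each probe and a column for each array. Amplification started from 5 µg of RNA, per the labels' protocols. The submitters' processing notes name limma; its version and role, the scanner and any background correction are not given in the sources read. Of 29922 probes, 21020 have 1 gene symbol in the platform annotation and 8902 have none. Symbols were updated with the RefSeq gene table of GRCm38.p6 (17558 current, 3410 updated, 52 kept).

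Deposited intensities were taken to log2 without a pseudocount, probes of 1 gene were averaged, and genes were kept that, on at least 1 array, were as bright as the median named probe there (270.5, 269, 270.2 and 272.2 on mock, TNBS, ginger and zingerone). Intensities printed for genes with several probes are geometric means. Calls are at 1.5-fold and 2-fold. No test was possible with 1 array per group. Members and lists were chosen with earlier results of these data known. Named members were always the catalytic and isoform subunits, the extremes of each complex and those 2-fold apart in any comparison; the others are named to account for all members. Of each other list, the 2 genes farthest from 0 on TNBS against mock were named. Other genes of these lists, among them Nrf1, Esrra and Ppargc1a, were added after their values were seen.

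Alternatives were the brightest probe per gene, no filter, a filter at the 75th percentile, quantile normalization, equal medians, a floor at the 25th percentile, the 5th percentile subtracted with values under 50 raised to 50, removal of probes at least 4-fold from 3 arrays that lie within 1.41-fold, and a 2-fold call. Scripts ran in Python 3.11.15 with pandas 2.3.3 and numpy 2.4.6, and were checked on simulated data.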

Additional observations from a re-analysis of the deposited data

How the results depend on the processing

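Of the medians recomputed by complex, 297 moved by less than the median gap between 2 probes of 1 gene and 3 by more, and of the recomputed counts 101 stayed within 1.5 times and 7 did not. All 7 came from the 2-fold call: 27 members lower on TNBS than on mock in place of 41, 2 higher on ginger than on TNBS in place of 20, 13 higher on zingerone than on TNBS in place of 25, 0 higher and 4 lower on ginger than on mock in place of 1 and 21, 1 lower on zingerone than on mock in place of 8, and 4 higher on zingerone than on ginger in place of 8. Without the filter, which adds dim tissue forms, the complex IV median was -0.67 for TNBS minus mock in place of -1.10, and -0.28 for ginger minus mock in place of -0.56, so that complex IV no longer had the lowest median in these comparisons or in zingerone minus mock (-0.08). With background subtracted, the complex III median of ginger minus TNBS was 0.72 in place of 0.47. Uqcrfs1, dim on TNBS, then stood at -2.27 (log2, TNBS minus mock) in place of -1.32. Small medians changed sign: complex IV of zingerone minus ginger was 0.03, and -0.02 with the brightest probe; complex I was 0.00, and -0.02 with Ndufa4 counted in complex IV, a choice made after seeing the data. The 297 and the 101 include settings that could hardly move a member. Sorted values already differ by at most 1.84% between arrays, so quantile normalization and equal medians change little. The floor lies below the filter, and none of the removed probes belonged to a member. These settings are therefore a weak check. No paired analysis was possible because each group has 1 array and the labels carry no replicate numbers. Signal over background limits dim members such as Uqcrfs1, whose differences are understated.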
